A study of Mus musculus with 6 samples.

Results

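Injury matrix cells are fibro-adipogenic progenitors (FAPs) of mouse tibialis anterior muscle (TAM) that carried RNA of at least 2 of the 4 genes *Cthrc1*, *Tnc*, *Lrrc15* and *Ltbp2*. FAPs were taken as cells with RNA of *Pdgfra* and *Dcn* and none of *Ptprc*, the gene of the leukocyte antigen CD45. Cells with 2 or more of the cell cycle genes *Mki67*, *Top2a*, *Cdk1*, *Birc5*, *Cenpf* and *Ccna2* were kept apart as cycling. By this rule 578 of 3204 FAPs, and of 11207 cells in all, were injury matrix cells. The members were chosen by the measured UMIs of these genes in each cell, so the high levels of these 4 genes in the members are a description and no finding.

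Single-cell RNA sequencing compared TAM of hypothyroid and control male mice, aged 3 to 5 months, before injury and at 5 and 14 days post injury (dpi). Hypothyroid mice ate a low iodine diet with 0.15% propylthiouracil (PTU), a blocker of thyroid hormone synthesis, and control mice ate the matched diet without PTU. All mice carried the cell cycle reporter Fucci2aR at Gt(ROSA)26Sor on a B6;129 background and, by the study's methods, no Cre, and injury was made by cardiotoxin, a snake venom toxin that destroys myofibers, injected into the right TAM. Cells of 3 mice were pooled in each of the 6 libraries, with 1 library for each diet and time, so that no difference between conditions has a replicate and none was tested. Members numbered 2 in uninjured control muscle, 104 at 5 dpi and 73 at 14 dpi, against 0, 311 and 88 in hypothyroid muscle.

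FAPs are the connective tissue cells of skeletal muscle. After an injury they multiply, lay down a transient extracellular matrix and secrete signals that call in immune cells and act on muscle stem cells, and most are later cleared or return to rest. Cells that carry *Cthrc1* and *Postn* are known from wounds and fibrotic tissue as fibroblasts with a high output of collagen. The label of FAPs was checked on genes that the rule did not use. In the 4 libraries after injury *Gsn* was detected in 96.2% to 100% of members, *Col3a1* in 98.6% to 100%, *Lum*, the proteoglycan lumican, in 87.7% to 98.9%, and *Col1a1* in every member. Cells with *Ptprc* and without *Pdgfra*, which were shallower (median 2855 to 5545 UMIs), had *Gsn* in 17.0% to 48.8%, *Col3a1* in 20.4% to 39.9%, *Lum* in 1.36% to 6.54% and *Col1a1* in 14.9% to 27.0%.

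The libraries have limits that come before the results. The file of a sample can hold several runs of alphabetically ordered cell barcodes, and only the first run of each was used. Of its cells, 1680 stood with the same values in the later runs of another sample's file. They were 528 cells of control muscle at 5 dpi and 1152 cells of hypothyroid muscle at 14 dpi, and they included 23 of 104 and 68 of 88 members. Whether they belong to the labelled sample cannot be told from the files, so values that lost the fold or moved by over 1.5 times without them, or with all columns of each file, are given after each comparison. Later columns are of unknown condition, and the file of hypothyroid muscle at 14 dpi has none. Values with all columns therefore show how far a ratio moves and cannot decide whether a difference holds. First runs of different libraries shared 12 barcodes. Libraries held 2283743 to 23496484 UMIs (unique molecular identifiers, each 1 counted RNA molecule), and members had a median of 10108 to 16211 UMIs in the 4 libraries after injury.

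Levels below are UMIs of a gene summed over the members of a library, per 1000000 UMIs of those members (CPM). Intervals are exact 95% intervals and cover counting error alone, not the spread between mice. A gene was compared between 2 libraries where the higher of both held at least 100 UMIs of it, and its ratio was counted as past the fold at 2 or more, or at 0.5 or less. Where the cells of 1 side held more UMIs in all, a gene reached this minimum at a lower CPM. Counts of genes past the fold and shifts of the median gene therefore lean toward the side with more UMIs.

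The 4 genes of the rule and the 2 further marker genes encode secreted or surface proteins of the matrix. *Cthrc1* (chromosome 15, 38940327 to 38950516 in mm39) encodes a secreted glycoprotein of collagen-making cells, and *Tnc* (chromosome 4, 63878022 to 63965252) tenascin-C, a matrix protein that appears in wounds. *Lrrc15* (chromosome 16, 30088120 to 30102074) encodes a membrane protein of activated fibroblasts, and *Ltbp2* (chromosome 12, 84829986 to 84923306) a protein of elastic microfibrils. *Postn* (chromosome 3, 54268530 to 54298458) encodes periostin, which binds collagen, and *Timp1* (chromosome X, 20736405 to 20740974) an inhibitor of matrix metalloproteinases. Neither *Postn* nor *Timp1* was part of the rule.

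The regulatory sequence just before the start of 3 of the 4 rule genes is shown because these genes define the cells and were present together in many of them. Each stretch holds the 250 bases before the RefSeq start in GRCm38.p6, read 5′ to 3′ on the gene's strand, and 5 of the 6 marker genes had one. Where RefSeq lists several starts, the most downstream was used. Capitals mark a match to a motif searched on both strands: TGANTCA, the AP-1 motif, present in 6.75% of 32851 such windows, GGAATG, the TEAD motif, in 12.6%, and TATAA, the TATA box, in 22.8%. None of these motifs overlapped another in the windows shown.
Tnc, chr4:64046937-64047186, minus strand: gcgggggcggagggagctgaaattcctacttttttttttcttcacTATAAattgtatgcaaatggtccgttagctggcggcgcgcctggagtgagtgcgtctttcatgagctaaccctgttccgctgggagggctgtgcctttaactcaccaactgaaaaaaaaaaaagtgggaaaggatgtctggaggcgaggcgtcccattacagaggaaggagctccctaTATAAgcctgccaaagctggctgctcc
Lrrc15, chr16:30283255-30283504, minus strand: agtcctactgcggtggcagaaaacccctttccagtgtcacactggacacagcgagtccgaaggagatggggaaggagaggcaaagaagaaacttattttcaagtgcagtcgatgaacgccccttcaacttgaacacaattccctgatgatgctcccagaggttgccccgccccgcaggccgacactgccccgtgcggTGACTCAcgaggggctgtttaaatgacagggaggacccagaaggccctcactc
Ltbp2, chr12:84876492-84876741, minus strand: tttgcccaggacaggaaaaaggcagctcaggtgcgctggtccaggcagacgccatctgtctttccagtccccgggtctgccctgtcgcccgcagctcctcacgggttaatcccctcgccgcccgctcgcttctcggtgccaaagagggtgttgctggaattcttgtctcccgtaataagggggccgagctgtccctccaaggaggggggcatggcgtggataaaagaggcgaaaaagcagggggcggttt
The Tnc window held a TATA box 27 bases before the start and another 205 bases before it, and the Lrrc15 window an AP-1 motif 53 bases before the start. The Ltbp2 window held none of the 3 motifs in these letters. A match of letters is a description and not a binding site.

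The 4 rule genes were present in the members as the rule requires, and their levels differed most between days. *Cthrc1* stood at 1004 CPM in control members and 1219.7 CPM in hypothyroid members at 5 dpi, and at 370.2 and 304 CPM at 14 dpi. *Tnc* stood at 2144 and 2131 CPM at 5 dpi, and at 436 and 527 CPM at 14 dpi. *Ltbp2* went from 173 and 162 CPM to 19.1 and 17.7 CPM. So the members of 14 dpi had less of all 3 genes in both diets. *Lrrc15* was at 126 CPM in control members at 5 dpi and at 63.6 CPM in hypothyroid members, and at 32.7 and 40.7 CPM at 14 dpi.

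The rule genes did not have the same reach. At 5 dpi *Cthrc1* was detected in 96.2% and 98.7% of control and hypothyroid members, and *Lrrc15* in 60.6% and 53.1%. At 14 dpi *Lrrc15* was detected in 26.0% and 34.1% and *Ltbp2* in 16.4% and 13.6%. All 4 genes together were found in 37 of 104 control members (35.6%) and 108 of 311 hypothyroid members (34.7%) at 5 dpi. At 14 dpi no control member and 1 hypothyroid member had all 4. There the pair of *Cthrc1* and *Tnc* alone made up 43 of 73 control members and 47 of 88 hypothyroid members. At 14 dpi, therefore, the members were mostly cells with *Cthrc1* and *Tnc*, and *Lrrc15*, which is in the name of these cells, was found in a minority of them.

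Some UMIs of the rule genes were also found in cells that should lack them. Among cells with *Ptprc* and without *Pdgfra*, called *Ptprc*-positive below, *Cthrc1* was detected in 2.04% of control cells at 5 dpi (median 3363 UMIs per cell) and 7.77% of hypothyroid cells (median 5545 UMIs), against 1.97% and 0.402% at 14 dpi. *Tnc* was detected in 5.58% and 12.8% of these cells at 5 dpi. *Lrrc15* and *Ltbp2* were detected in at most 1.23% of them in any library. In endothelial cells (*Pecam1* and *Cdh5* without *Pdgfra* and *Ptprc*) the highest share was 28.0%, for *Tnc* in control muscle at 5 dpi. Members were chosen on these genes, so these shares are given as background and not set against theirs.

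In the first runs injury matrix cells were nearly absent before injury and made up a large share of FAPs at 5 dpi. In uninjured muscle the rule took 2 of 505 control FAPs (0.396%, Clopper-Pearson 95% interval 0.0480 to 1.42) and 0 of 176 hypothyroid FAPs (95% interval 0 to 2.07). At 5 dpi it took 104 of 259 control FAPs (40.2%, 95% interval 34.1 to 46.4) and 311 of 558 hypothyroid FAPs (55.7%, 95% interval 51.5 to 59.9). At 14 dpi it took 73 of 1075 (6.79%, 95% interval 5.36 to 8.46) and 88 of 631 (13.9%, 95% interval 11.3 to 16.9). In both diets the share was highest at 5 dpi and higher at 14 dpi than before injury, and on both days it was higher in the hypothyroid library. With all columns of each file, whose later ones are of unknown condition, the shares were 7.39% (70 of 947) and 10.2% (23 of 226) in the uninjured files, whose later columns repeat cells of the hypothyroid library at 14 dpi and the control library at 5 dpi, 15.7% and 42.0% at 5 dpi, and 6.83% and 13.9% at 14 dpi. The near absence before injury therefore holds for the first run of barcodes and not for all columns, and with all columns the control share at 14 dpi was not above that before injury.

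**Figure D1:**
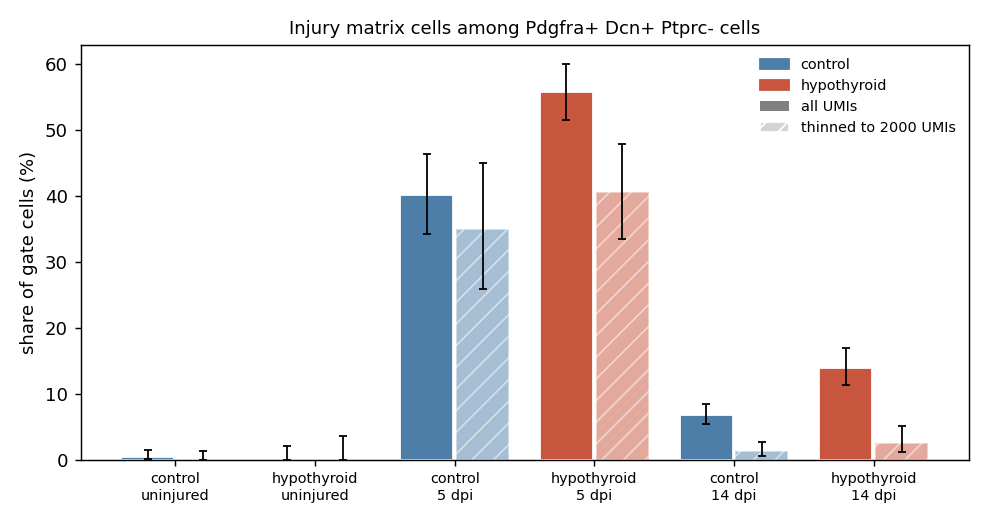
Injury matrix cells as a percentage of FAPs (y axis, gate cells) in each of the 6 libraries (x axis). Shares are given with all UMIs and after cells were thinned to 2000 UMIs, with the whole rule applied again. Bars are shares and error lines Clopper-Pearson 95% intervals, which cover counting error only. The 5 dpi libraries stand highest, at 40.2% in control and 55.7% in hypothyroid muscle with all UMIs, and at 35.0% and 40.5% after thinning.

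The ratio of hypothyroid over control differed with the thinning of cells and with the denominator. It was 1.39 of FAPs at 5 dpi and 2.05 at 14 dpi. Of all cells of a library, members were 4.28% in control and 14.4% in hypothyroid muscle at 5 dpi, a ratio of 3.37, and 2.22% and 5.33% at 14 dpi, a ratio of 2.41. A deeper cell has more chances to show 2 of 4 genes, so each cell was also thinned to 2000 UMIs. The thinned shares were 35.0% (36 of 103, 95% interval 25.8 to 45.0) and 40.5% (77 of 190, 95% interval 33.5 to 47.9) at 5 dpi, with overlapping intervals and a ratio of 1.16. At 14 dpi they were 1.28% (7 of 545) and 2.61% (8 of 307), and before injury 0 of 290 and 0 of 102. The whole rule, with its FAP and cell cycle genes, was applied again to the thinned counts. At 5 dpi FAPs numbered 259 and 558 before thinning and 103 and 190 after it. At 14 dpi they numbered 1075 and 631 before and 545 and 307 after. Of the FAPs before thinning, 9 to 116 per library were left out as too shallow. The thinned shares are thus of a differently selected set of FAPs, not of the same FAPs at equal depth. With the cells found in 2 libraries left out, the shares of FAPs were 38.8% in control muscle at 5 dpi and 10.6% in hypothyroid muscle at 14 dpi, with a hypothyroid over control ratio of 1.56 at 14 dpi.

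Members shaded into the other FAPs without a gap. Among FAPs that did not cycle, 22 control cells at 5 dpi had none of the 4 rule genes, 48 had exactly 1, 41 exactly 2, 26 exactly 3 and 37 all 4. The hypothyroid library of that day had 46, 59, 88, 115 and 108 cells in the same order. At 14 dpi the control library had 729, 268, 61, 12 and 0 cells, and the hypothyroid library 330, 212, 71, 16 and 1. Depth moved with the number of genes: at 5 dpi the median was 3921.5 UMIs in control cells with none and 18895 UMIs in those with all 4, and 2694.5 and 18577 UMIs in hypothyroid cells.

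*Postn*, which the rule did not use, was at 2159 CPM just outside the rule (exactly 1 gene) and 5328 CPM just inside it (exactly 2 genes) in control muscle at 5 dpi. In hypothyroid muscle of that day it was at 2201 and 4018 CPM. At 14 dpi it was at 940.4 and 2425 CPM in control muscle and 1895 and 3297 CPM in hypothyroid muscle. The step was therefore upward in all 4 libraries. *Gsn*, the actin-severing protein gelsolin that is abundant in resting FAPs, ran the other way, from 11545 CPM in control cells of 5 dpi with none of the genes to 3588, 1696, 1172 and 670.1 CPM with 1, 2, 3 and 4. *Clec3b*, which encodes tetranectin, was at 1136 CPM in the cells with none and 24.3 CPM in the cells with all 4, and at 1839.7 and 41.0 CPM in the hypothyroid library. *Acta2*, smooth muscle actin, was at 67.6, 198 and 577 CPM in control cells of 5 dpi with 2, 3 and 4 genes, and at 78.5, 193 and 407 CPM in hypothyroid cells. *Spp1*, osteopontin, was at 53.4 and 1836 CPM in control cells with 2 and with 4 genes, and at 356 and 1113 CPM in hypothyroid cells. *Spp1* was carried by few cells: it was detected in 21 of the 37 control cells with 4 genes, and 3 of these held 73.5% of its UMIs.

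**Figure D2:**
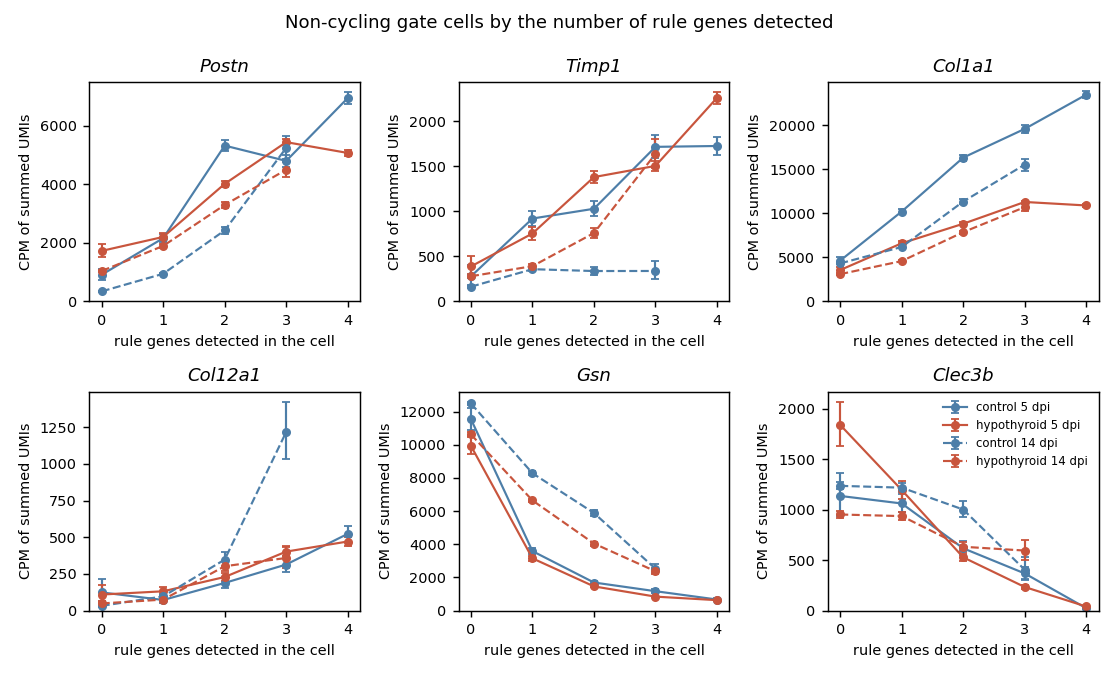
Level in CPM (y axis, linear) of *Postn*, *Timp1*, *Col1a1*, *Col12a1*, *Gsn* and *Clec3b* against the number of rule genes detected in a cell (x axis, 0 to 4), for FAPs that did not cycle (gate cells in the title) in the 4 libraries after injury. Points are UMIs summed over at least 10 cells and error lines exact Poisson 95% intervals. *Postn* climbs between 1 and 2 genes in every library, and *Gsn* descends with each added gene.

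Beside the other FAPs of the same library, the members had more collagen and matrix RNA and less RNA of resting FAPs. This comparison is a description, since the cells were split by their own counts. It set members against FAPs that did not cycle and had none of the rule genes (22, 46, 729 and 330 cells). In control muscle at 5 dpi, 346 of 1645 genes (21%) were at least 2-fold higher in members and 22 (1.34%) at least 2-fold lower. In hypothyroid muscle 588 of 2769 (21.2%) were higher and 32 (1.16%) lower. At 14 dpi 55 of 3450 (1.59%) were higher and 153 (4.43%) lower in control, and 79 of 3221 (2.45%) were higher and 79 (2.45%) lower in hypothyroid muscle. The median gene was shifted by 0.49 on the log2 scale in both libraries of 5 dpi, and by -0.22 and -0.13 at 14 dpi, so ratios below are to be read against these shifts.

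Of 778 genes compared in all 4 libraries, 21 (2.7%) were at least 2-fold higher and 2 (0.257%) at least 2-fold lower in members in every one. *Col1a1*, a chain of type I collagen, was at 20126, 10558, 12083 and 8383 CPM in members of control and hypothyroid muscle at 5 dpi and control and hypothyroid muscle at 14 dpi. The cells without rule genes were at 4622, 3550.3, 4302 and 3082 CPM in the same order. Members were 2.72 to 4.35 times as high for this gene. Of 7 fibrillar collagens compared in every library, *Col1a1*, *Col1a2* and *Col11a1* were past the fold in all 4. So were *Col8a1* and *Col12a1* of 6 other collagens, *Thbs4* and *Postn* of 10 matricellular glycoproteins, and *Mfap4* of 7 elastic and microfibril genes. *Col12a1* encodes a collagen that coats fibrils, and its ratio ran from 2.89 in control muscle at 5 dpi to 15.4 in control muscle at 14 dpi.

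*Postn* and *Timp1* are the markers that the rule left free. *Postn* was 6.47 and 2.88 times as high in members at 5 dpi (control, hypothyroid) and 8.68 and 3.59 times at 14 dpi. *Timp1* was 5.39 and 4.60 times as high at 5 dpi and 2.08 and 3.47 times at 14 dpi. Both markers were thus past the fold in all 4 libraries. Among signals, *Inhba*, which encodes a subunit of activins, was 13.4, 17.6, 2.23 and 6.02 times as high, and *Ptn*, the growth factor pleiotrophin, 4.71, 4.0, 5.45 and 5.53 times. *C1qtnf3*, a secreted protein related to complement C1q, was at 128, 238, 241 and 392 CPM in members, and at 19.1, 0, 7.40 and 24.4 CPM in the cells without rule genes.

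The 2 genes that were lower in every library were *Gsn* and *C3*, the third complement component. *Gsn* was at 1138, 901, 5289 and 3715 CPM in members against 11545, 9934, 12491 and 10623 CPM, so that the gap was widest at 5 dpi. *Pi16*, a marker of FAPs near vessels and in the fascia, had ratios of 0.248, 0.202, 0.562 and 0.453. The contractile list, with *Acta2*, *Tagln* and *Cnn2*, was past the fold upward in 7 of 10 genes compared in control and 6 of 11 in hypothyroid muscle at 5 dpi, and in 0 of 6 and 0 of 7 at 14 dpi. The shares of all genes past the fold upward were 21% and 21.2% at 5 dpi and 1.59% and 2.45% at 14 dpi. These counts and shares lean with the UMIs of each side, so the days are not set against each other.

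Cycling FAPs of 5 dpi carried the rule genes too. *Tnc* was detected in 90.6% of 85 control and 88.7% of 142 hypothyroid cells, and *Ltbp2* in 69.4% and 64.8%. Members had 88.5% and 97.1% for *Tnc* and 51.0% and 57.6% for *Ltbp2*. FAPs with *Pi16* outside the members hold at most 1 rule gene by construction, and in 69.6% and 61.5% of them at 5 dpi it was *Cthrc1*. *Cthrc1* was thus also common in FAPs outside the members on that day.

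The genes that followed *Cthrc1* most closely over the members were of several kinds. The measure was the Spearman correlation of shares of UMIs over the members of each of the 4 libraries, ranked by the lowest of the 4 values among 3794 genes, and cells of a library share depth and base composition. *C1qtnf3* led with a lowest value of 0.328, followed by *Selenom* at 0.272, *Col1a1* at 0.264, *Col12a1* at 0.256 and *Aspn*, the proteoglycan asporin, at 0.240. *Copz2*, *Fkbp7*, *Lsp1*, *Scd2* and *Calu* completed the first 10, at 0.213 to 0.233. These correlations are weak and are given without a test.

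Members of 14 dpi had less RNA of secretion and contraction than those of 5 dpi and more RNA of resting FAPs, in the first runs of both diets. In control muscle 135 of 2281 genes (5.92%) were at least 2-fold higher at 14 dpi and 272 (11.9%) at least 2-fold lower. In hypothyroid muscle 289 of 3867 (7.47%) were higher and 524 (13.6%) lower. The median gene was shifted by -0.27 on the log2 scale in control and -0.19 in hypothyroid members. With ratios divided by the median ratio, 212 genes were higher and 145 lower in control (59.4% of calls higher, in place of 33.2%), and 440 and 375 in hypothyroid members (54.0% in place of 35.5%). Members of both days also differed in their number of rule genes. At 5 dpi 63 of 104 control and 223 of 311 hypothyroid members had at least 3. At 14 dpi 12 of 73 and 17 of 88 did. *Acta2* rose with that number at 5 dpi and, in control cells, *Gsn* fell, as given above. The part of that number in the day ratios was not tested. With at least 3 rule genes, 37 genes were higher and 315 lower in control, and 76 and 581 in hypothyroid members.

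The day ratios of the rule genes are a description, since the members were chosen on them. *Tnc* had a ratio of 0.203 in control and 0.247 in hypothyroid members, *Cthrc1* of 0.369 and 0.249, and *Ltbp2* of 0.110 and 0.110. *Timp1* went from 1492 to 336 CPM in control (ratio 0.225) and from 1783 to 966 CPM in hypothyroid members (ratio 0.542). *Postn* had ratios of 0.499 and 0.749.

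Genes of the endoplasmic reticulum, where collagen is folded and loaded for secretion, were lower together. Of 18 compared in control members 10 were at or below 0.5 and 0 at or above 2, with a median of -1.01 on the log2 scale beside -0.27 over all genes. Of 19 in hypothyroid members the counts were 10 and 0, with a median of -1.02 beside -0.19. *Hsp90b1*, a chaperone, went from 1762 to 822 CPM in control and from 1549.7 to 493 CPM in hypothyroid members. *Sec61b*, a subunit of the channel that takes new proteins into the reticulum, had ratios of 0.326 and 0.238, and *Pdia6*, which forms disulfide bonds, 0.354 and 0.352. *Hsp90b1* in *Ptprc*-positive cells of the same libraries had ratios of 0.964 and 0.939. Of the genes that fold and crosslink collagen, 7 of 18 were lower and 1 higher in control, and 5 of 18 and 0 in hypothyroid members. *Serpinh1*, the collagen chaperone, had ratios of 0.358 (95% interval 0.332 to 0.385) and 0.462 (95% interval 0.432 to 0.493), and *Lox*, which crosslinks collagen, 0.317 and 0.424.

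Contractile genes were lower in 6 of 10 and higher in 1 in control, and lower in 3 of 11 and higher in 0 in hypothyroid members. *Acta2* went from 312 to 44.9 CPM in control and from 253 to 24.4 CPM in hypothyroid members. *Tagln*, transgelin, had ratios of 0.340 and 0.201. Genes of the interferon response were lower in 6 of 11 and in 6 of 15, with none higher. *Bst2*, tetherin, had ratios of 0.387 (95% interval 0.321 to 0.463) and 0.201 (95% interval 0.171 to 0.235), and *Isg15* 0.394 and 0.379. *Spp1* was at 848 CPM in 44 of 104 control members at 5 dpi and was not detected in 73 members at 14 dpi, where 3 UMIs would have been 4.08 CPM. In hypothyroid members it went from 671 to 35.5 CPM. *Ptprc*-positive cells had *Spp1* ratios of 0.0220 and 0.108, and their part in the members' difference was not tested.

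Genes of resting FAPs, without *Dcn*, which the rule used, were higher at 14 dpi in 4 of 12 and lower in 2 in control, and higher in 8 of 15 and lower in 2 in hypothyroid members. *Gsn* went from 1138 to 5289 CPM in control (ratio 4.65, 95% interval 4.40 to 4.91) and from 901 to 3715 CPM in hypothyroid members (ratio 4.12, 95% interval 3.96 to 4.29). *Clec3b* had ratios of 2.90 and 2.78 and *Pi16* 2.12 and 2.27. In *Ptprc*-positive cells *Gsn* had a ratio of 6.46 in control and 1.02 in hypothyroid muscle, so in control muscle this RNA was higher in other cells as well. Other matrix genes were higher with them. Basement membrane collagens *Col4a1* and *Col4a2* had ratios of 2.92 and 3.79 in control and 2.88 and 3.03 in hypothyroid members. The endothelial list summed to 20.8 and 466 CPM in control members at 5 and 14 dpi and to 53.3 and 396 CPM in hypothyroid members, and *Ptprc*-positive cells had *Col4a1* ratios of 4.55 and 3.63. Their part in these ratios and in that of *Fabp4* below was not tested. *Mmp2*, a gelatinase, had 2.90 and 3.09. *Ltbp4*, which ties TGF-β to microfibrils, went from 59.3 to 817 CPM and from 52.8 to 458 CPM.

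Other genes named for their size of change were of several kinds. In control members *Myoc* (15.1), *Cpxm2* (18.6) and the fatty acid binding protein *Fabp4* (34.0) were higher at 14 dpi, and *Aldh1a2* (0.0843), *Serpina3n* (0.0897), *Plac8* (0.0967) and *S100a4* (0.133) were lower. *Chl1*, *Ass1* and *Mmp9* had 0 to 3 UMIs in control members at 14 dpi, from 96.1, 93.2 and 67.7 CPM at 5 dpi. In hypothyroid members *Mmp3*, stromelysin, was higher at 14 dpi (17.0, 95% interval 15.2 to 18.9), as was *Rps27rt* (17.0), and *Gstp1* (0.0567), the Wnt modulator *Sfrp2* (0.0583), the chemokines *Ccl4* (0.0232) and *Cxcl10* (0.0651) and the heat shock gene *Hspa1b* (0.0919) were lower. The counts of *Gstp1* are uncertain. At 5 dpi it was higher in hypothyroid than control muscle in members and *Ptprc*-positive cells alike, as given below. Transcripts of muscle fibers were also higher at 14 dpi, *Tnnt3* by 20.8 and *Ckm* by 24.0 times in control members and 17.3 and 20.1 times in hypothyroid members. The ratios of *Ckm* in *Ptprc*-positive cells were 14.7 and 19.9. The 12 myofiber genes summed to 747 CPM in members of control and 143 CPM in members of hypothyroid muscle at 5 dpi and to 9129 and 2386 CPM at 14 dpi, and every member at 14 dpi held at least 3 of them.

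These day ratios moved in part with the cells used. With all columns of each file, 5 of 16 named genes higher at 14 dpi in control members were still past the fold, and 21 of 24 lower ones. *Gsn* was then at 1.94, *Clec3b* at 1.93 and *Pi16* at 1.66, all below the fold. So in control members none of these 3 genes of resting FAPs reached the fold with all columns. *Mmp2* was at 1.76, *Cpxm2* at 1.84, *Fabp4* at 1.33, *Tnnt3* at 1.36 and *Ckm* at 1.71, all below the fold, and *Ltbp4* was at 2.35, *Myoc* at 2.03 and *Col4a2* at 2.18. Among lower genes *Postn* was at 0.700, *Inhba* at 0.644 and *Isg15* at 0.788, past the fold no longer, and *Timp1* was at 0.489, *Ass1* at 0.145, *Serpina3n* at 0.165 and *Plac8* at 0.149.

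In hypothyroid members 17 of 20 higher and 19 of 19 lower named genes were still past the fold with all columns. *Pi16* was then at 1.72, *Eln* at 1.82 and *Klf9* at 1.75, past the fold no longer, and *Mmp3* at 8.63, and *Mmp3* was at 8.41 without cells that held markers of other types (myofiber aside). *Rps27rt* was at 6.68. Without the cells found in 2 libraries, *Ltbp2* was at 0.0194, *Acta2* at 0.161, *Spp1* at 0.0327, *Cxcl10* at 0.167, *Ccl4* at 0.148 and *Hspa1b* at 0.160. In control members *Hsp90b1* was then at 0.513, just short of the fold, and *Tnnt3* and *Ckm* at 34.7 and 37.8.

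Tendon genes marked a group of members at 14 dpi. Cells were counted by how many of 8 genes of tendon cells they held (*Scx*, *Tnmd*, *Mkx*, *Fmod*, *Kera*, *Chodl*, *Cilp2* and *Ptx4*). At least 3 were found in 4 of 104 control members and 10 of 311 hypothyroid members at 5 dpi. At 14 dpi they were found in 22 of 73 control members (30.1%, 95% interval 19.9 to 42.0) and 12 of 88 hypothyroid members (13.6%, 95% interval 7.25 to 22.6). Among FAPs outside the members that did not cycle, 23 of 997 (2.31%) and 9 of 542 (1.66%) held as many at 14 dpi. Cells with tendon genes were thus found at a higher percentage among members than among other FAPs in both libraries. Members were also deeper, with medians of 10108 and 14931.5 UMIs against 5303 and 8178.5 in FAPs without rule genes. The part of depth was not tested. In the whole libraries 215 of 3294 control and 56 of 1650 hypothyroid cells held as many tendon genes, most of them outside the FAPs. The split by tendon genes was made after the values had been seen, so the levels of the 8 genes themselves are a description.

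**Figure D3:**
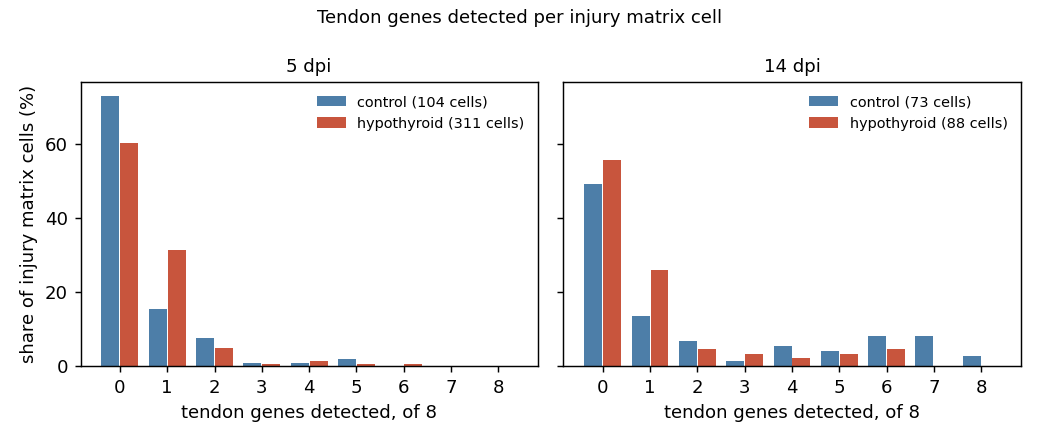
Number of the 8 tendon genes detected per member (x axis) against the percentage of members (y axis), in the 4 libraries after injury, as bars. At 14 dpi 22 of 73 control and 12 of 88 hypothyroid members hold 3 or more, and most members at 5 dpi hold none.

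*Tnmd*, tenomodulin, was at 2799.8 CPM in the control members with 3 or more of these genes and 52.7 CPM in the rest, and at 1362 and 61.6 CPM in hypothyroid members. *Kera*, the proteoglycan keratocan, was at 1182 and 3.90 CPM, and at 828 and 0 CPM. Genes outside the count differed as well. *Col1a1* was at 20224 against 8546 CPM in control members and 14764 against 7485 CPM in hypothyroid members, *Col12a1* at 1335 against 141 and 1139.8 against 208 CPM, and *Col11a1* at 1150.5 against 15.6 and 912 against 24.5 CPM. *Chad*, chondroadherin of cartilage and tendon, was at 297 against 1.95 CPM in control members. Type I collagen and its fibril partners were thus higher in the cells with tendon genes.

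Chemokine, type III collagen and elastin RNA was lower there. *Ccl2* was at 1901 against 6390.5 CPM in control members and 5513 against 15461 CPM in hypothyroid members. *Col3a1*, type III collagen, was at 7262 against 17691 and 9112 against 13147 CPM, and *Eln*, tropoelastin, at 94.4 against 1671 and 24.0 against 305 CPM. In each library 1 cell held a large part of the *Eln* UMIs, as given below. *Pi16* was at 247 against 812 and 18 against 376 CPM. The rule gene *Cthrc1* was at 467 against 328 and 576 against 266 CPM. *Lrrc15* had 1 UMI in the 22 control cells with tendon genes. The members of 14 dpi therefore included cells with tendon RNA beside cells without it.

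Tendon genes also differed between the days. *Tnmd* was 29.2 times as high at 14 dpi as at 5 dpi in control members and 13.7 times in hypothyroid members, and *Fmod*, fibromodulin, 21.9 and 4.75 times. With all columns of each file *Tnmd* was at 3.65 and *Fmod* at 1.19 in control members, and without the cells found in 2 libraries *Fmod* was at 12.1 in hypothyroid members. Without cells that held 3 or more tendon genes, *Fmod* was at 0.275 times its 5 dpi level in hypothyroid members, the opposite direction. *Kera* had 68.8 and 27.2 CPM at 5 dpi and 361 and 102 CPM at 14 dpi.

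At 5 dpi the members of hypothyroid muscle had more RNA of 6 chemokines than those of control muscle. Most lists of matrix genes had medians below 0, and most of their genes did not differ by 2-fold. Of 3699 genes compared, 146 (3.95%) were at least 2-fold higher and 171 (4.62%) at least 2-fold lower in hypothyroid members, and the median gene was shifted by 0.01 on the log2 scale. Hypothyroid members held more UMIs in all (5362975 against 1684928), toward which the counts and the shift lean. Among 19 chemokine and cytokine genes 6 were higher and 1 lower, with a median of 0.77 on the log2 scale. *Ccl2*, which draws monocytes, was at 4753 CPM in members of control and 14913 CPM in hypothyroid members, so that the ratio was 3.14 (95% interval 3.07 to 3.21), and was detected in 69.2% and 90.7% of them. *Ccl7*, another monocyte chemokine, was at 1662 and 4512 CPM (ratio 2.71), and *Cxcl1*, which draws neutrophils, at 3861 and 8319 CPM (ratio 2.15). These 3 chemokines were higher in hypothyroid members.

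Chemokines that interferon induces were higher too, at lower levels. *Cxcl9* was at 46.3 and 218 CPM, so that the ratio was 4.72 (95% interval 3.75 to 6.01), and *Cxcl10* at 152 and 489 CPM, so that the ratio was 3.22 (95% interval 2.83 to 3.67). Of 14 genes of the interferon list 1, *Ifit3*, was past the fold. *Cxcl16* had a ratio of 3.31. *Cxcl2* (1.91), *Cxcl5* (1.92), *Il33* (1.92), an alarmin, and *Il1rl1* (1.71), its receptor, did not reach the fold. *Il11*, a cytokine of fibroblasts, was lower, at 128 and 43.6 CPM. In cells that held fewer than 3 genes of any other cell type its ratio was 1.01.

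*Ptprc*-positive cells of these libraries carried these RNAs too. In *Ptprc*-positive cells *Ccl2* was at 284 CPM in control muscle and 898 CPM in hypothyroid muscle, a ratio of 3.16, *Ccl7* had a ratio of 5.85, *Cxcl1* 5.36, *Cxcl9* 1.94 and *Cxcl10* 1.04. *Ccl2* in *Ptprc*-positive cells stood far below its level in members. The part of these cells in the members' ratios was not tested.

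Most lists of matrix genes had medians below 0 at 5 dpi, beside 0.01 over all genes. On the log2 scale matricellular glycoproteins were at -0.40, proteases and inhibitors at -0.46, and elastic and microfibril genes at -0.25. Of 12 fibril-associated and other collagens none was past the fold, with a median of 0.01 on the log2 scale, and of 7 small proteoglycans 1, *Kera*, was lower, with a median of 0.15. Of 7 fibrillar collagens none was past the fold either way and the median was -0.55 on the log2 scale. *Col1a1* was at 20126 and 10558 CPM, so that the ratio was 0.525 (95% interval 0.518 to 0.532), *Col3a1* at 17723 and 10728 CPM (0.605), and *Col1a2* at 10768 and 7377 CPM (0.685). Of 19 genes that fold and crosslink collagen 3 were lower and 0 higher, with a median of -0.64, *Loxl1* (0.448), *P4ha3* (0.386) and *Adamts2* (0.472), a procollagen protease. *Serpinh1* was at 3136 and 1614 CPM (0.515), *Fn1*, fibronectin, at 4648 and 2770.1 CPM (0.596), and *Fbn1*, fibrillin, at 1906 and 969.8 CPM (0.509). The ratio of *Col1a1* in *Ptprc*-positive cells was 2.18, above 1. *Postn* had a ratio of 0.846 (95% interval 0.827 to 0.866). Among the rule genes, whose values chose the members, *Tnc* had a ratio of 0.994 and *Lrrc15* of 0.503.

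*Eln* was at 424 and 134 CPM, so that the ratio was 0.315 (95% interval 0.284 to 0.350), with 45.7% of the control UMIs in 1 cell, and at 0.632 without cells that held markers of other types (myofiber aside). Among proteases and inhibitors 5 of 21 were lower and 1 higher. *Plau*, urokinase, was higher (147 and 453 CPM, ratio 3.09, 95% interval 2.71 to 3.53), and *Htra1*, a serine protease, was lower (0.373). *Mmp3* was at 168 and 76.3 CPM (0.454), with 58.7% of the control UMIs in 1 cell, and at 2.33 in cells with fewer than 3 genes of any other type.

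**Figure D4:**
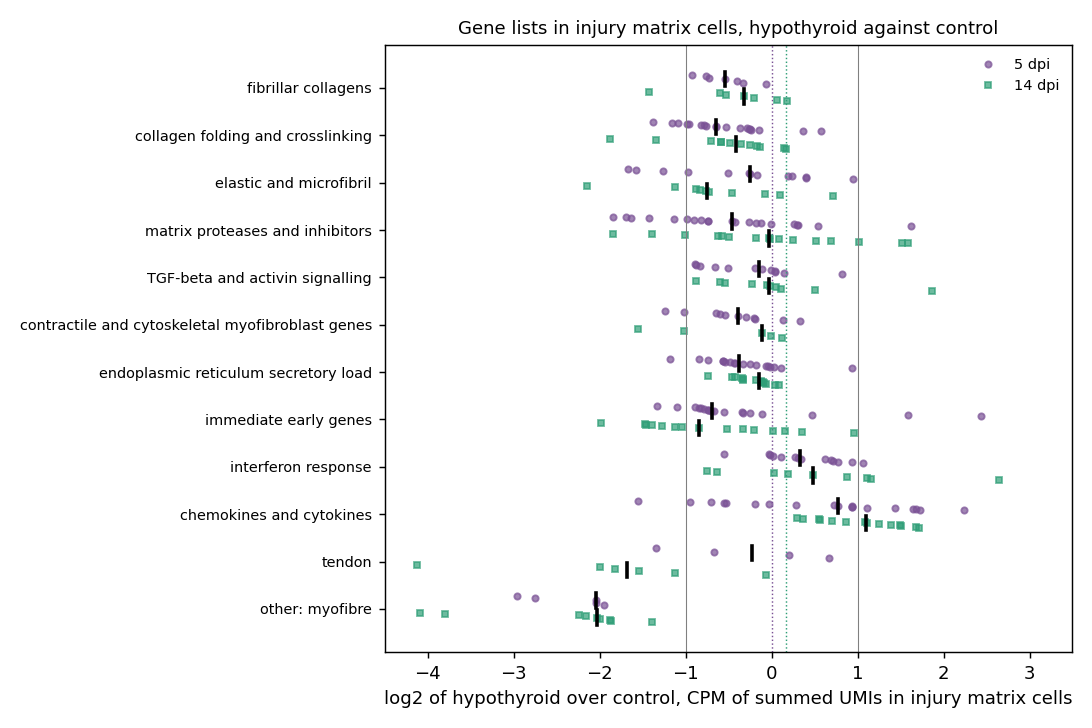
Hypothyroid over control in members, as log2 of the ratio of CPM (x axis), for the genes of 12 lists (rows) at 5 dpi and 14 dpi. Each point is a gene, black ticks are list medians, dotted lines the median of all genes and grey lines 2-fold either way. Myofiber genes are the last row. The chemokine list has its median at 0.77 and 1.10, and the fibrillar collagens at -0.55 and -0.32.

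Transcription factors differed as well. *Klf9*, a gene that thyroid hormone is known to induce, was at 605 CPM in control members and 225 CPM in hypothyroid members, so that the ratio was 0.372 (95% interval 0.342 to 0.404). It was 1 of 4 thyroid hormone genes with enough UMIs, and the others were not past the fold. Its ratio in *Ptprc*-positive cells was 0.646. *Klf2* was at 262 and 72.2 CPM, so that the ratio was 0.275 (95% interval 0.239 to 0.316). Of 18 immediate early genes *Hspa1a* and *Hspa1b*, of heat shock, were higher and *Egr2* and *Zfp36* lower, with a median of -0.69.

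Some differences were carried by few cells. *Tac1*, which encodes substance P, was at 2.37 CPM in control members (2 of 104 cells) and 183 CPM in hypothyroid members (66 of 311 cells), so that the ratio was 77.3 (95% interval 30.1 to 284). *Dlk1*, a regulator of fat cell formation, was at 46.3 and 139 CPM, so that the ratio was 3.01 (95% interval 2.38 to 3.85), in 16 and 59 cells. *Saa3*, serum amyloid A3, was at 312 CPM in control members and 0.559 CPM in hypothyroid members, but 58.7% of the control UMIs came from 1 of the 9 cells that had it. *Cd248*, endosialin of stromal cells, was lower (224 and 51.1 CPM, 0.228), as was the adhesion molecule *Chl1* (0.161).

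Many of the largest ratios were also seen in *Ptprc*-positive cells. Of the 16 genes with the largest ratios by the bound nearest 1, *Gstp1* (22.0), *Ube2s* (24.0), *Gm10076* (18.1) and *mt-Nd4l* (12.8) were higher and *Wdr89* (0.0902), *Neat1* (0.252), *Btg2* (0.235) and *mt-Nd1* (0.269) lower in hypothyroid members. In *Ptprc*-positive cells their ratios were 34.5, 12.3, 13.4, 16.9, 0.0608, 0.385, 0.378 and 0.288 in the same order. These 8 differences thus had the same direction in both kinds of cell. *Gstp1*, *Ube2s* and *Gm10076* share sequence with near-identical copies, so their counts are uncertain. *Gm45570* was also higher (20.5), and *Gm42047*, with 0 UMIs in control members, was at least 16.1-fold higher.

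Markers of macrophages moved with diet at 5 dpi. The 12 genes of the macrophage list summed to 21.4 CPM in members of control and 191 CPM in members of hypothyroid muscle. At least 3 of these genes were found in 2 of 104 and 11 of 311 members. *Lyz2* was at 4.75 and 38.4 CPM with 42.7% of the hypothyroid UMIs in 1 cell, and *C1qb* at 0.593 and 26.3 CPM. *Ccl4*, a macrophage chemokine among the 8 largest ratios, was at 1.19 and 63.8 CPM, with 44.4% in 1 cell, and had a ratio of 14.1 in *Ptprc*-positive cells. The endothelial list summed to 20.8 and 53.3 CPM. Myofiber genes ran the other way, with *Mylpf* at 183 and 27.2 CPM and *Myl1* at 109 and 14.0 CPM, and ratios of 0.174 and 0.124 in *Ptprc*-positive cells. Their part in the other results was not tested. With cells that held 3 or more genes of another type left out (myofiber aside), *Ccl2* had a ratio of 2.84 and *Col1a1* of 0.574.

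By all columns of each file, 18 of 20 higher and 14 of 21 lower named genes of this comparison were still past the fold. *Cxcl1* was then at 1.92, *Il11* at 0.533, *Loxl1* at 0.614, *P4ha3* at 0.619, *Adamts2* at 0.539, *Tubb5* at 0.658, *Chl1* at 0.538 and *Mmp3* at 0.549, none past it. The collagen folding genes that were lower thus lost the fold with all columns, and *Ccl2* and *Ccl7* did not (2.89 and 2.45). *Tac1* was at 13.6, *Kera* at 0.190, *Cd248* at 0.398, *mt-Nd4l* at 3.22, *Ube2s* at 9.42, *Gm42047* at 10.4, *Gm45570* at 12.6, *Wdr89* at 0.286, *mt-Nd1* at 0.443, *Neat1* at 0.379 and *Saa3* at 0.263. For *Mylpf* and *Myl1* the values were 0.0615 and 0.0481, and for *Lyz2* and *C1qb* 5.02 and 27.5. Without the cells found in 2 libraries *Zfp36* was at 0.518, *C1qb* at 11.2, *Mylpf* at 0.270 and *Gm45570* at 62.3. Without cells that held markers of other types *Klf2* was at 0.469 and *Tac1* at 269.

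At 14 dpi the hypothyroid members again had more chemokine RNA, and less tendon and immediate early RNA, than control members of the first run of barcodes. Of 1901 genes compared, 71 (3.73%) were at least 2-fold higher and 71 (3.73%) at least 2-fold lower. The median gene was shifted by 0.17 on the log2 scale toward hypothyroid members. These members held more UMIs in all (1352194 against 734683), toward which the counts and the shift lean. With ratios divided by the median ratio 44 were higher and 104 lower (29.7% of calls higher, in place of 50%).

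Of 14 chemokine and cytokine genes 8 were higher and 0 lower, with a median of 1.10 on the log2 scale. *Ccl2* was at 5031 and 14235 CPM, so that the ratio was 2.83 (95% interval 2.73 to 2.93), and *Ccl7* at 1752 and 5614 CPM, so that the ratio was 3.20 (95% interval 3.02 to 3.4). *Il1rl1* was at 593 and 1949 CPM (3.28) and *Il33* at 170.1 and 479 CPM (2.82). With all columns of each file none of these 4 genes was past the fold, as given below. *Lif*, a cytokine that acts on myoblasts, had a ratio of 2.38, *Cxcl14* 2.12, *Cxcl5* 2.62 and *Ccl11*, which draws eosinophils, 2.16. *Cxcl1* was at 6268 and 9219 CPM (1.47). In *Ptprc*-positive cells *Ccl2* had a ratio of 0.826 and *Ccl7* of 0.531, so on this day these RNAs were not higher in those cells.

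**Figure D5:**
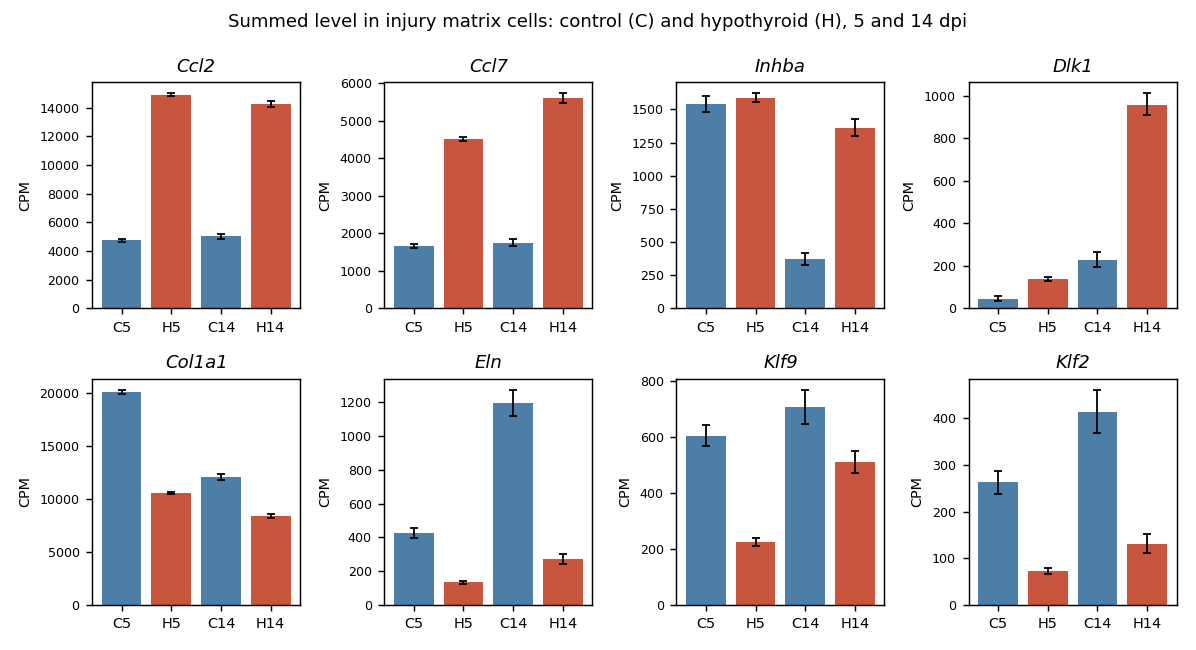
Level in CPM (y axis, from 0) of *Ccl2*, *Ccl7*, *Inhba*, *Dlk1*, *Col1a1*, *Eln*, *Klf9* and *Klf2* in members of control and hypothyroid muscle at 5 and 14 dpi (x axis, C5, H5, C14 and H14). Bars are summed UMIs of 1 library and error lines exact Poisson 95% intervals, which cover counting error only. *Ccl2*, *Ccl7* and *Dlk1* are higher, and *Col1a1*, *Eln*, *Klf9* and *Klf2* lower, in the hypothyroid library of both days.

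The chemokine values at 14 dpi moved when the cells found in 2 libraries were left out. Without them 20 hypothyroid members remained. *Ccl2* then had a ratio of 1.68, below the fold, and *Ccl7* of 3.04. *Cxcl1* was at 0.525, *Cxcl2* at 0.749 and *Cxcl5* at 0.754, all below 1. *Il1rl1* and *Il33* had ratios of 3.76 and 2.29, and *Ccl11* of 2.93. With all columns of each file, *Ccl2* and *Ccl7* were both at 1.17, *Il1rl1* at 1.27, *Il33* at 1.44, *Lif* at 1.53, *Cxcl5* at 0.848 and *Ccl11* at 0.912. Of the chemokine and cytokine genes past the fold at 14 dpi, *Cxcl14* alone was still past it with all columns (2.21). All columns add 1152 and 1649 later columns to the control file of 14 dpi and none to the hypothyroid file. The condition of these columns is unknown, so this setting cannot decide whether the higher RNA holds. *Lif*, *Ccl11* and *Cxcl14* were at 1.70, 1.84 and 1.84 without cells that held tendon genes.

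Growth and differentiation signals were among the largest ratios. *Inhba* was at 373 CPM in control members and 1362 CPM in hypothyroid members, so that the ratio was 3.65 (95% interval 3.22 to 4.16), where at 5 dpi it had been at 1538 and 1588 CPM. Control members of 14 dpi thus stood apart from the other 3 libraries for this gene. *Dlk1* was at 229 and 959 CPM (4.19, 95% interval 3.57 to 4.96) and was detected in 16 of 73 and 50 of 88 cells. *Igfbp3*, which binds insulin-like growth factors, was at 316 and 1050.2 CPM (3.33). *Apod*, apolipoprotein D, was at 387 and 1699 CPM (4.39, 95% interval 3.88 to 4.99). It was detected in 78.1% and 92.0% of cells. *Timp1* was at 336 and 966 CPM (2.87). *Cstb*, cystatin B, had a ratio of 3.67, and 1.82 without the cells found in 2 libraries. *Ifit1*, an interferon gene (6.28), *Slc7a2*, an arginine transporter (6.33), *Cda*, cytidine deaminase (7.17), and *Adgra1* (8.62) had 7 to 20 UMIs in control members. *Mmp3* was at 431 and 1294 CPM (3.00, 95% interval 2.66 to 3.39), with 55.5% of the control UMIs in 1 cell, and had a ratio of 1.33 without cells that held markers of other types (myofiber aside).

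At 14 dpi 5 of 19 higher named genes were still past the fold with all columns of each file. *Inhba* was then at 1.64, *Dlk1* at 1.69, *Igfbp3* at 1.37, *Timp1* at 1.61, *Cstb* at 1.75, *Slc7a2* at 1.48 and *Mmp3* at 1.95, below the fold, and *Apod* at 2.05, *Ifit1* at 2.52 and *Adgra1* at 2.55. Without the cells found in 2 libraries *Timp1* was at 1.92 and *Ifit1* at 15.5, and *Inhba* and *Dlk1* were at 3.21 and 4.51. Without cells that held markers of other types *Apod* was at 2.91 and *Cda* at 33.3. In members with at least 3 rule genes *Cstb* was at 1.05.

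Of 10 elastic and microfibril genes 2, *Eln* and *Mgp*, were lower in hypothyroid members. *Eln* was at 1194 and 271 CPM, so that the ratio was 0.227 (95% interval 0.200 to 0.256), with 29.8% and 39.3% of the UMIs in 1 cell of each library. It was at 0.513 with all columns of each file, short of the fold, and at 0.0763 without the cells found in 2 libraries. *Mgp*, matrix Gla protein, was at 3644 and 1669.9 CPM (0.458), and *Fbn1* at 1369 and 806 CPM (0.589). *Mgp* was at 0.578 and 0.725 in these 2 settings. *Adamts2* (0.395) and *Htra1* (0.280) were past the fold as at 5 dpi, and were at 0.611 and 0.489 with all columns. *Col1a1* was at 12083 and 8383 CPM, so that the ratio was 0.694 (95% interval 0.675 to 0.713), and *Col1a2* had a ratio of 0.662. *Col3a1* had a ratio of 0.870. Of 7 fibrillar collagens 1 was past the fold, *Col11a1*, which was high in the tendon cells, and the median was -0.32 beside 0.17 over all genes. Without cells that held tendon genes the ratio of *Col1a1* was 0.876. *Thy1*, a surface protein of fibroblasts, was at 158 and 28.8 CPM (0.183, and 0.348 with all columns).

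Of 6 tendon genes 5 were lower, among them *Egr1*, which is also counted with the immediate early genes below and was not used to count tendon genes per cell. *Tnmd* was at 885 and 222 CPM (0.251) and *Fmod* at 1247 and 429 CPM (0.344), beside the smaller share of cells with tendon genes in the hypothyroid library. *Fmod* had a ratio of 0.879 without the cells found in 2 libraries and 0.704 with all columns. *Kera* was past the fold on both days (0.395 and 0.283), with 0.610 at 14 dpi without those cells and 0.713 with all columns.

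Immediate early genes were lower in 7 of 15 and higher in 0, with a median of -0.84. *Fos* was at 2259 and 813 CPM, so that the ratio was 0.360 (95% interval 0.333 to 0.388), *Jun* at 1622 and 672 CPM (0.414), and *Atf3* at 411 and 104 CPM (0.254). In *Ptprc*-positive cells their ratios were 1.10, 0.682 and 0.967. *Zfp36*, which promotes decay of cytokine RNA, was lower on both days (0.397 and 0.382). With all columns *Fos*, *Jun* and *Zfp36* were at 0.620, 0.643 and 0.551, short of the fold, and *Atf3* at 0.391. Without the cells found in 2 libraries *Jun* was at 0.503 and *Atf3* at 0.397. *Klf2* was at 412 and 130.2 CPM (0.316, 95% interval 0.261 to 0.381). *Klf9* was at 706 and 509.5 CPM, so that the ratio was 0.721 (95% interval 0.643 to 0.810), which did not reach the fold. Whether *Klf9* differed between the days in its ratio was not tested.

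Myofiber RNA moved with diet at 14 dpi too. The 9 myofiber genes compared were all lower in hypothyroid members. *Ckm* was at 769 and 172 CPM (0.224), *Pvalb* at 595 and 42.9 CPM (0.0721) and *Myh4* at 151 and 8.87 CPM (0.0587). *Tnnt3* (0.211), *Tnni2* (0.245) and *Myl1* (0.252) were lower as well. The ratios of *Ckm*, *Pvalb* and *Myh4* in *Ptprc*-positive cells were 0.208, 0.0878 and 0.152. This RNA was therefore lower in other cells of the hypothyroid library also. In the 12 control and 17 hypothyroid members with at least 3 rule genes, *Tnni2* and *Myl1* had ratios of 1.47 and 1.15. With all columns *Ckm*, *Pvalb*, *Myh4*, *Tnnt3*, *Tnni2* and *Myl1* were at 0.492, 0.176, 0.151, 0.493, 0.560 and 0.580, and without the cells found in 2 libraries *Myh4* was at 0.166. The macrophage list summed to 29.9 and 27.4 CPM at 14 dpi.

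Genes past the fold in the same direction on both days are given side by side, since both days use separate libraries. Over all genes 3.95% were higher and 4.62% lower at 5 dpi, and 3.73% each way at 14 dpi. The overlap of the days was not tested. *Ccl2*, *Ccl7* and *Dlk1* were higher in hypothyroid members on both days, and *Eln*, *Kera*, *Htra1*, *Adamts2*, *Klf2*, *Zfp36* and *Tubb5* were lower, among the genes of the lists, 5 myofiber genes aside. *Tubb5* encodes a tubulin that is high in growing cells and had ratios of 0.413 and 0.462. With all columns of each file *Klf2* (0.266 and 0.452) and *Htra1* (0.423 and 0.489) alone of these 10 genes were past the fold on both days. *Inhba*, *Il33*, *Il1rl1*, *Apod* and *Timp1* were past the fold at 14 dpi and had ratios of 1.03, 1.92, 1.71, 1.90 and 1.2 at 5 dpi, but the difference between days was not tested.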

How the data were processed

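Single cells of digested TAM were sequenced with 10x 3′ v3 chemistry. By the study's methods Partek Flow was used, where the Cell Ranger aligner placed the reads on mm39 with GENCODE genes. Cells were filtered on UMIs, genes and mitochondrial share. The upper limit of UMIs that the methods state lies below the median of the members in each library after injury (10108 to 16211 UMIs). Why deeper cells stand among the deposited values cannot be told from them. The deposited values are log2(CPM + 1) per gene and cell. UMIs were recovered from them, since the most frequent value above 0 in a cell is 1 UMI, and 99.934% of 3.93e+07 values came out whole. The first run of alphabetically ordered barcodes in each file was used, and 9062 later columns of 20269 only in the setting with all columns. The members and gene lists were chosen with earlier results of these data known.

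Counts were summed over the members of a library and divided by their total. Levels have exact Poisson intervals, shares Clopper-Pearson intervals and ratios exact conditional binomial intervals, all at 95% and for counting error only. No test was run, with 1 library per group. A gene was compared from 100 UMIs in the higher library, at a fold of 2. Ratios against 0 UMIs use a floor of 3 counts per library. Named genes were the 8 largest ratios each way by the interval end nearest 1, with UMIs in at least 20 cells, the 4 most abundant of each list, list genes past the fold on both days in 1 direction, and the 10 that follow *Cthrc1*. Other genes were named after their values were seen. No doublet caller was run. Instead, cells with 3 or more genes of another cell type were left out as an alternative. Python 3.11.15, numpy 2.4.6, scipy 1.17.1 and pandas 2.3.3 were used, and the steps were tested on simulated data.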

Additional observations from a re-analysis of the deposited data

Results flagged for a closer look

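*Mmp3*, which encodes stromelysin, had a hypothyroid over control ratio of 0.454 at 5 dpi and 3.00 at 14 dpi. The directions were opposite on both days, and the difference between them was not tested. In control members 1 cell held 58.7% of the *Mmp3* UMIs at 5 dpi and 55.5% at 14 dpi.

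Columns after the first run of barcodes were used only in the setting with all columns. They also held cells that met the rule, in 5 of the 6 files. They numbered 68 in the file of uninjured control muscle, 59 in that of control muscle at 5 dpi, 77 at 14 dpi, 23 in the file of uninjured hypothyroid muscle and 80 in that of hypothyroid muscle at 5 dpi. The first runs of both uninjured files held 2 and 0 such cells. The later columns of these 2 files have the same values as cells of the hypothyroid library at 14 dpi and the control library at 5 dpi. The 68 and 23 cells thus also stood among the 88 and 104 members of those libraries, which the main comparisons used. Which sample they come from cannot be told apart from the files.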

How the results depend on the processing

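No paired analysis was possible because each group has 1 library. Depth, 1 library per group and cells found in 2 libraries limit these results. With every cell thinned to 2000 UMIs the share ratio at 5 dpi was 1.16, and the genes higher and lower were 30 and 9 (hypothyroid over control, 5 dpi), 2 and 0 (14 dpi), 2 and 37 (14 over 5 dpi, control) and 3 and 74 (hypothyroid), since few genes held 100 UMIs. With at least 30 UMIs they were 316 and 539, 211 and 259, 299 and 658, and 659 and 1031 in that order. With at least 3 rule genes the share ratio at 5 dpi was 1.64, 16 genes were lower in hypothyroid members at 14 dpi, 37 were higher at 14 than 5 dpi in control and 76 in hypothyroid members, and *Tnni2* (1.47) and *Myl1* (1.15) turned at 14 dpi. With all columns the share ratio at 5 dpi was 2.68, 112 genes were lower at 5 dpi, 11 were higher and 33 lower at 14 dpi, and *Cxcl5* (0.848) and *Ccl11* (0.912) turned. Without cells holding 3 or more genes of another type 47 genes were lower at 5 dpi, *Il11* (1.01) and *Mmp3* (2.33) turned, and no member was left at 14 dpi. Divided by the median ratio, 44 genes were higher in hypothyroid members at 14 dpi, 212 higher and 145 lower at 14 than 5 dpi in control, and 440 higher in hypothyroid members. Chosen after seeing the data, leaving out cells with 3 or more tendon genes turned *Fmod* between days in hypothyroid members (0.275), and leaving out cells found in 2 libraries gave 25 genes higher in hypothyroid members at 14 dpi, 97 higher at 14 than 5 dpi, *Cxcl5* at 0.754 at 14 dpi and *Eln* at 0.682 between days. Apart from settings whose construction leaves fewer cells or UMIs, the cause was not tested. Of 159 gene ratios named past the fold, 156 were past it as a mean over cells, 154 divided by the median ratio and 108 with all columns. Of 147, 136 were past it without cells found in 2 libraries.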
